A study of Gallus gallus with 20 samples.

Results

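The troponins and tropomyosins are the regulatory proteins of the thin filament, and 10 of their genes were followed in proliferating MuSCs, the muscle stem cells (satellite cells) of the chicken breast. The genes were taken by symbol from the deposited table of estimated counts per gene (TNNT2, TNNT3, TNNI1, TNNI2, TNNC1, TNNC2, TPM1, TPM2, TPM3 and TPM4). All 10 were found, each in 1 row, among 30108 genes. The cells were primary skeletal myoblasts from the pectoralis muscle of 36 days old Ross-308 broilers and were expanded in culture before lysis. The paper describes its pen-raised birds as male. It also names abattoir fillets of the same age as a source of MuSCs, without giving their sex. The 9 affected (A) libraries came from birds with wooden breast, a myopathy in which the breast muscle becomes hard. The 11 non-affected (NA) libraries came from birds that the paper classed by fewer signs of fibrosis, not by their absence. It also reports occasional necrotic fibres and inflammation in that group. No treatment, transgene or allele is given for either group. The comparison asks whether thin filament genes, and the balance of their slow or cardiac and fast forms, differed between cells of affected and non-affected birds.

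In striated muscle, tropomyosin lies along the actin filament and covers the sites where myosin binds, and a troponin complex sits on each tropomyosin. Troponin C binds calcium, troponin I holds the complex on actin when calcium is low, and troponin T ties the complex to tropomyosin. Each troponin subunit has separate genes for fast skeletal and for slow skeletal or cardiac muscle, and immature skeletal muscle also uses the cardiac troponin T gene. Troponins are made by differentiating muscle cells, whereas the tropomyosin genes also give shorter non-muscle isoforms from other promoters and exons, which counts per gene add together.

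The libraries held between 15425103 and 28113814 counts, and levels are given as CPM, counts scaled to library size with TMM factors. Each library was treated as 1 sample, although 4 pairs carry 1 bird number each, with a suffix B on 1 of the pair. Nothing in the labels says that such pairs were separate cultures, so p-values measure the spread between these libraries, part of which may be technical. The library NA70 stood apart, and 11.7% of the tested genes had their highest level in it. HINTW lies on the W chromosome of female birds, whereas the birds raised for the study are described as male. HINTW had 8.75 counts or fewer in 10 libraries (8 affected, with NA61 and NA61B) and at least 876 counts in the others (9 non-affected, with A76). Disease group and HINTW therefore nearly coincide, and the troponin and tropomyosin calls are also given without NA70, with HINTW as a term in the fit and in the libraries under 100 HINTW counts alone.

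The troponin genes TNNT2, TNNI2 and TNNC1 were lower in affected than in non-affected MuSCs, and the tropomyosin gene TPM2 was higher. TNNI1, TNNT3, TPM1, TPM3 and TPM4 did not pass the test, and TNNC2 had too few counts to be tested. Thus 3 of the 9 tested genes were lower and 1 was higher at an adjusted p of 0.05 or less (edgeR's quasi-likelihood test, Benjamini-Hochberg adjustment over 14524 genes). Among all tested genes, 2.91% were lower and 3.33% were higher. The 3 lower genes were also at least 2-fold lower, which held for 1.89% of all tested genes. In the 14432 genes tested without NA70, the same 3 troponin genes were lower, against 1.99% of all genes, and no member was called higher (edgeR), against 2.38% of all genes. In the libraries under 100 HINTW counts alone, TNNI2 remained lower, where 0.173% of 15616 tested genes were. The only non-affected libraries in this subset, NA61 and NA61B, share a bird number, so its calls may rest on a single non-affected bird. With HINTW as a term, no troponin or tropomyosin gene was called by edgeR, and of all tested genes 0.00689% were lower and 0 higher. In that fit TNNT2 and TNNI2 had an unadjusted p of 0.0272 and 0.0210, and 849 of the 14524 tested genes were under 0.05 in either direction.

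**Figure D1:**
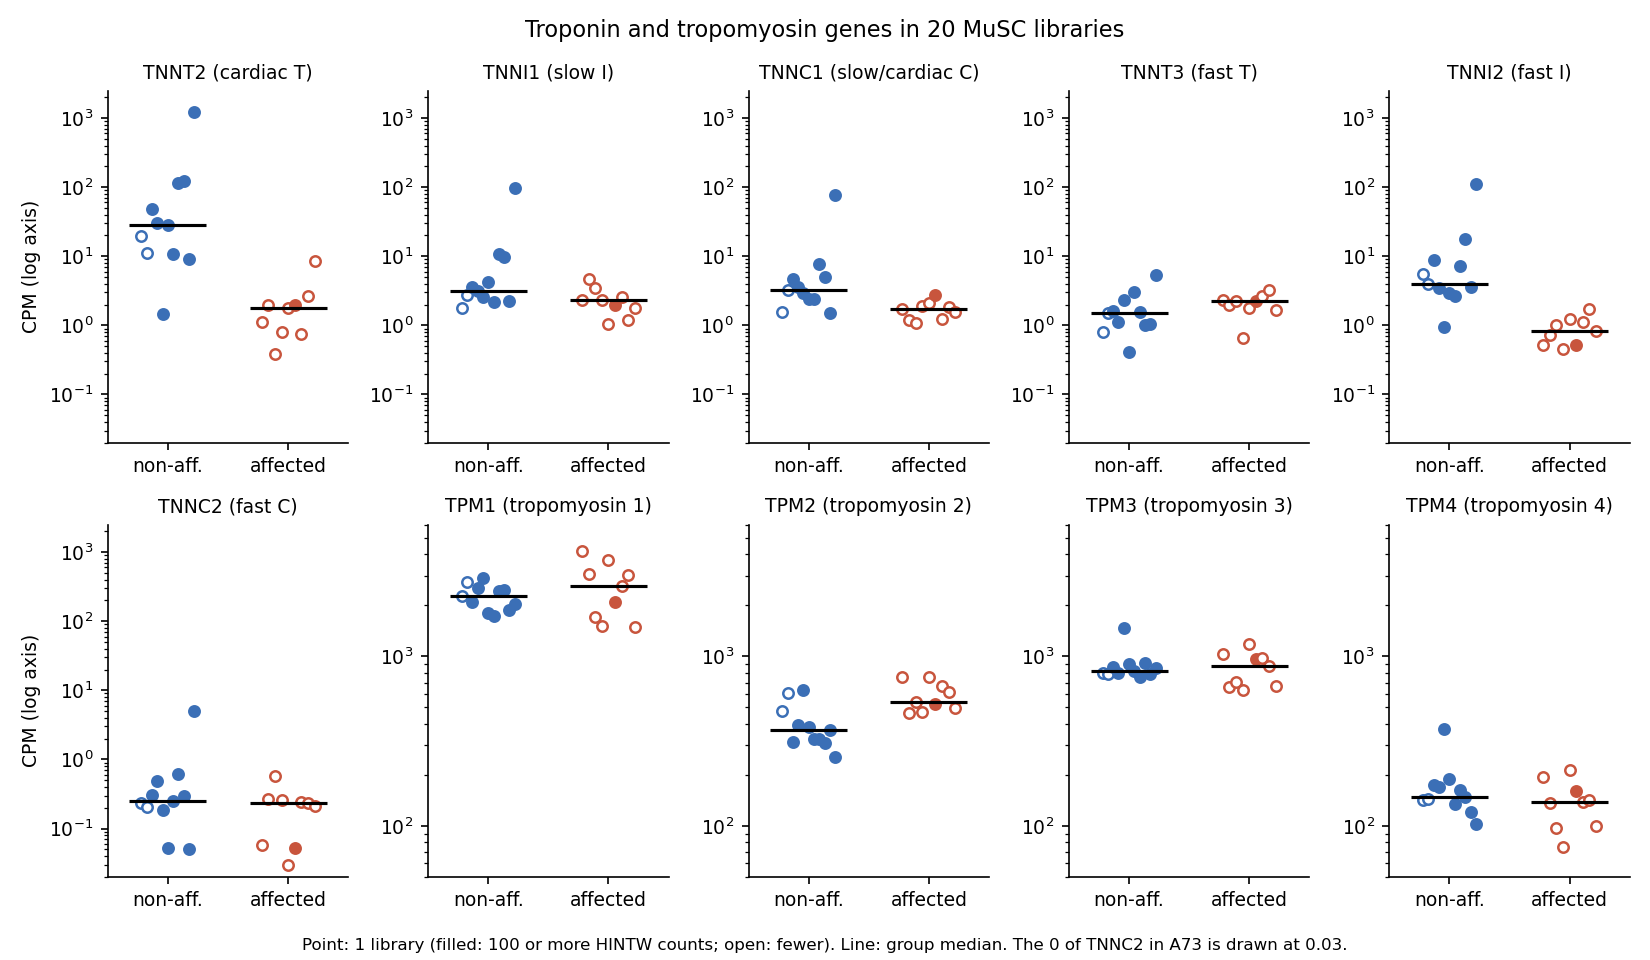
Level of each troponin and tropomyosin gene in each of the 20 libraries, as CPM on a log axis, with non-affected libraries in blue, affected libraries in red and lines at the group medians. Filled points are libraries with 100 HINTW counts or more. TNNT2 and TNNI2 have 10 of 11 non-affected libraries above the highest affected one, and the tropomyosins overlap.

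TNNT2 codes for cardiac troponin T, which in chickens is also made by embryonic skeletal muscle (ENSGALG00010026743, chromosome 26, 842445 to 853745 in the RefSeq annotation of GRCg7b). In non-affected libraries its level was 1.44 CPM at the lowest (NA64B), 28.6 at the median and 1204 at the highest (NA70), and the next highest library, NA68, had 124.0. In affected libraries the lowest was 0.380 CPM (A4), the median 1.77 and the highest 8.46 (A85), with the next at 2.66. All non-affected libraries but NA64B lay above every affected library, an arrangement of 10 or 11 non-affected libraries that 0.337% of tested genes showed, and all 9 affected libraries were below the non-affected median. The mean was 145.7 ± 353 CPM (SD, n = 11) against 2.21 ± 2.46 CPM (SD, n = 9). On the log2 scale TNNT2 changed by -6.03 in affected relative to non-affected libraries (SE 1.16, adjusted p = 0.00714), a 65.2-fold difference in the fitted means, while the medians differed 16.2-fold.

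The size of the TNNT2 difference turned on NA70. Without it the non-affected mean was 39.9 ± 44.2 CPM (SD, n = 10) and the log2 fold change -4.16 (SE 0.74, adjusted p = 0.00547). The 2 non-affected libraries without HINTW, NA61 and NA61B, had 19.6 and 11.2 CPM, above all 8 affected libraries under 100 HINTW counts. A76, the affected library with HINTW, had 1.996 CPM and lay among the other affected libraries. Once HINTW entered the fit, the TNNT2 value was -2.998 (adjusted p = 0.781), and in the libraries under 100 HINTW counts it was -2.79 (adjusted p = 0.212), so the direction was kept and the call was not.

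TNNT3, the fast skeletal troponin T gene (ENSGALG00010026972, chromosome 5, 13617139 to 13651290), was low in every library. Its level was 0.415, 1.53 and 5.30 CPM (lowest, median and highest) in non-affected libraries and 0.657, 2.22 and 3.23 CPM in affected libraries. NA70 was again the highest, but only 1.75-fold above the next non-affected library, and 8 of 9 affected libraries lay above the non-affected median. TNNT3 had a log2 fold change of 0.21 (SE 0.36, adjusted p = 0.744), and of 0.52 (adjusted p = 0.331) without NA70, so no difference was detectable with 8 to 114 counts per library.

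TNNI2 codes for fast skeletal troponin I, the inhibitory subunit (ENSGALG00010024594, chromosome 5, 13701258 to 13714653). Its level in non-affected libraries was 0.942 CPM at the lowest (NA64B), 3.93 at the median and 109.3 at the highest (NA70), and 17.5 in the next, NA68. In affected libraries it was 0.460 CPM at the lowest (A72), 0.835 at the median and 1.73 at the highest (A79). As for TNNT2, only NA64B among the non-affected libraries fell within the affected range, and 5 affected libraries were below it too. TNNI2 fell with a log2 fold change of -4.05 (SE 0.80, adjusted p = 0.00823), and of -2.63 (SE 0.43, adjusted p = 0.00414) without NA70. NA61 and NA61B, without HINTW, had 5.58 and 3.93 CPM against at most 1.73 CPM in the affected libraries, and A76, with HINTW, had 0.525 CPM. The value was -2.33 (SE 0.39, adjusted p = 0.0441) in the 10 libraries under 100 HINTW counts, where NA61 and NA61B, of a shared bird number, were the only non-affected libraries. Adding HINTW to the fit of all libraries gave -2.46 (adjusted p = 0.764).

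TNNI1, the slow skeletal troponin I gene (ENSGALG00010026560, chromosome 26, 825362 to 830777), gave 1.80, 3.17 and 97.2 CPM (lowest, median and highest) in non-affected libraries and 1.04, 2.30 and 4.64 CPM in affected libraries. Apart from NA70 the groups overlapped widely, and besides NA70 only NA67 and NA68 lay above the highest affected library (A16B). The log2 fold change of -2.42 (SE 0.75, adjusted p = 0.0556) did not pass the threshold. It was -0.86 (adjusted p = 0.183) without NA70, -0.08 with HINTW as a term and 0.08 in the libraries under 100 HINTW counts. Leaving out NA61, NA61B, NA64B or NA66, one at a time, brought the adjusted p to between 0.0419 and 0.0494.

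TNNC1 codes for the slow and cardiac form of troponin C, the calcium sensor (ENSGALG00010028025, chromosome 12, 643058 to 648527). It was at 1.51 CPM (NA69), 3.27 CPM and 76.01 CPM (NA70) in non-affected libraries, as lowest, median and highest, and at 1.08 (A4), 1.70 and 2.73 CPM (A76) in affected libraries. Every affected library was below the non-affected median, and 7 non-affected libraries were above the highest affected one. TNNC1 had a log2 fold change of -2.57 (SE 0.70, adjusted p = 0.0343), and of -1.04 (SE 0.28, adjusted p = 0.0403) without NA70. The highest affected library was the one with HINTW. Adding HINTW to the fit gave -0.53 (adjusted p = 0.998), and the libraries under 100 HINTW counts gave -0.63 (adjusted p = 0.522). Of the 20 fits without 1 library, 7 also lost the call (A4, A16, A16B, A72, A76B, A79 or A85, adjusted p up to 0.0659).

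TNNC2, the fast troponin C gene (ENSGALG00010015909, chromosome 20, 10853101 to 10854914), was near the limit of detection and was removed by the filter on low counts. It had 109.3 estimated counts in NA70 (5.07 CPM), whereas the next non-affected library had 0.615 CPM, and the non-affected median was 0.250 CPM. In affected libraries it ran from 0 CPM in A73, where a count of 0 allows up to 0.183 CPM (3 counts, counting error only), over a median of 0.231 CPM to 0.571 CPM in A4. Outside NA70 both groups covered the same low range. In a fit without the filter its log2 fold change was -1.74 (edgeR, adjusted p = 0.211).

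Lower genes occurred among both the slow or cardiac and the fast forms. Of the slow or cardiac genes, 2 of 3 were lower (TNNT2 and TNNC1), and of the 2 tested fast genes, TNNI2 was lower. Among all tested genes 2.91% were lower, and TNNC1 lost its call in 7 of the 20 fits without 1 library. The slow or cardiac genes had a median log2 fold change of -2.57, which was -1.04 without NA70, beside -0.01 for all tested genes in all libraries. The 2 tested fast genes went in opposite directions, TNNT3 at 0.21 and TNNI2 at -4.05. Summed over the 3 slow or cardiac genes, the level was 6.97 to 1377 CPM with a median of 35.2 in non-affected libraries and 4.55 to 11.8 CPM with a median of 5.15 in affected libraries. Summed over the 3 fast genes, it was 3.37 to 119.7 CPM with a median of 5.93 in non-affected and 1.38 to 5.20 CPM with a median of 2.95 in affected libraries. The difference in the slow or cardiac sum lay mainly in TNNT2, with medians of 28.6 CPM (non-affected) and 1.77 CPM (affected). The medians were 3.17 and 2.30 CPM for TNNI1, and 3.27 and 1.70 CPM for TNNC1.

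The balance within each subunit was measured as the log2 ratio of the slow or cardiac to the fast gene within a library, with 0.5 counts added to each. These ratios are not corrected for transcript length, so they compare libraries and not the amounts of the paralogues. The same counts entered the fits of single genes, so the ratios are not separate evidence. For troponin T, those fits called TNNT2 lower, and TNNT3 did not pass. Non-affected libraries had a log2 TNNT2 to TNNT3 ratio of 4.38 ± 2.46 (SD, n = 11), and affected libraries one of -0.35 ± 1.36 (SD, n = 9). All 9 affected libraries were below the non-affected median of 4.75, although the ranges met, with NA64B at -0.67 and A85 at 2.32. The difference of -4.73 had an adjusted p = 0.000643 (exact permutation test over 167960 splits, two-sided, adjusted over 3 ratios). In the libraries under 100 HINTW counts, 8 affected and 2 non-affected, the difference was -4.07 with an adjusted p = 0.0667 (exact permutation test, smallest unadjusted p allowed 0.0444). The unadjusted p was this smallest value, so a pass after adjustment needed all 3 ratios to reach it.

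The troponin I ratio shifted the other way, although neither troponin I gene was higher in affected libraries. TNNI2 was lower (log2 fold change -4.05), while TNNI1, at -2.42, did not pass (edgeR, adjusted p = 0.0556). The log2 TNNI1 to TNNI2 ratio had a mean of -0.27 ± 0.88 (SD, n = 11) among non-affected and 1.35 ± 1.09 (SD, n = 9) among affected libraries. The difference of 1.61 had an adjusted p = 0.00409 (exact permutation test, two-sided). Of the affected libraries, 8 of 9 were above the non-affected median and 5 were above every non-affected library, and A79 was lowest among them at -0.50. NA70 was unremarkable on this scale, at -0.17 beside a non-affected median of -0.30. NA61 and NA61B, without HINTW, were at -1.61 and -0.51, below the mean of 1.28 of the 8 affected libraries under 100 HINTW counts, and A76, with HINTW, was at 1.87. In the libraries under 100 HINTW counts the difference was 2.34 (exact permutation test, adjusted p = 0.0667), and its unadjusted p was again the smallest allowed, 0.0444.

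For troponin C, the log2 TNNC1 to TNNC2 ratio averaged 3.67 ± 0.63 (SD, n = 11) among non-affected and 3.19 ± 1.58 (SD, n = 9) among affected libraries, a difference of -0.48 (exact permutation test, adjusted p = 0.366). The affected libraries extended both above and below the non-affected range, from 0.93 in A4 to 6.11 in A73, the library with no TNNC2 count. With 5 counts added in place of 0.5, the difference was -0.81 (exact permutation test, adjusted p = 0.0121), so for this pair the result depended on the pseudocount. TNNT, TNNI and TNNC thus gave a lower, a higher and an undecided ratio of slow or cardiac to fast gene in affected MuSCs. For troponin T this was the cardiac gene TNNT2 over the fast gene TNNT3. The slow gene TNNT1 was not analysed here, so no slow to fast troponin T ratio was measured. Whether the 3 ratios differed from each other was not tested.

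**Figure D2:**
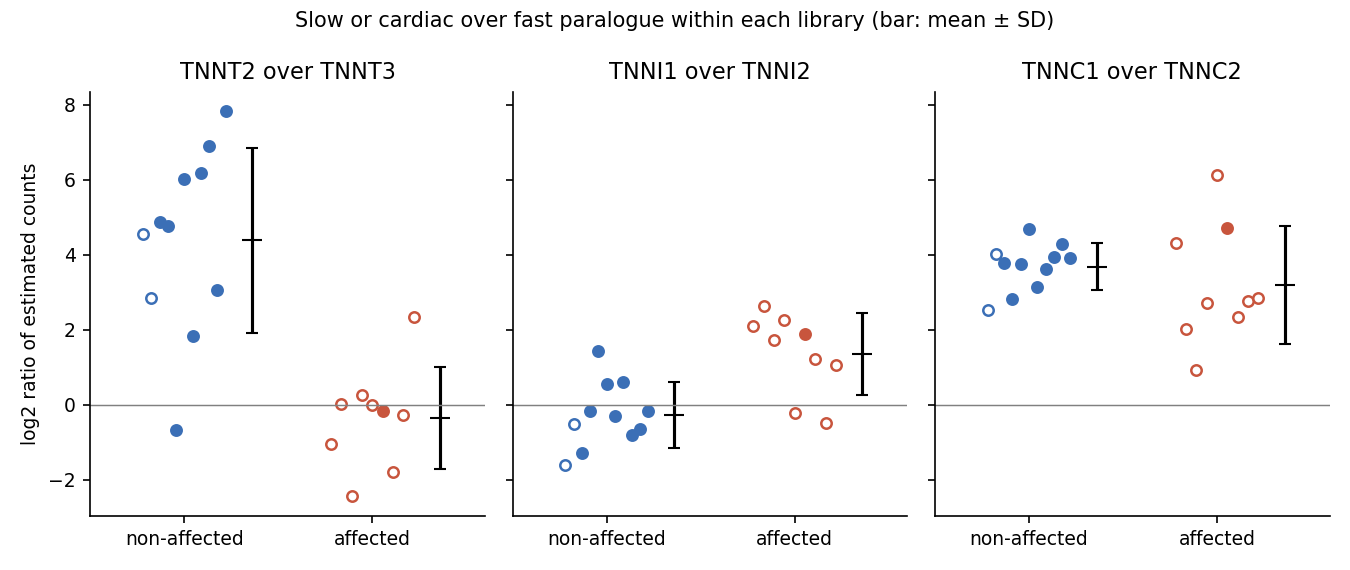
The log2 ratio of the slow or cardiac to the fast paralogue (estimated counts plus 0.5) in each library, with bars for the mean ± SD of 11 non-affected and 9 affected libraries and filled points for libraries with 100 HINTW counts or more. The affected libraries lie lower for TNNT2 over TNNT3 (mean -0.35 against 4.38) and higher for TNNI1 over TNNI2 (mean 1.35 against -0.27).

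TNNT2 also took a different share of the troponin counts. It made up 13.8% to 80.5% of the counts of the 6 troponin genes in non-affected libraries, with a median of 71.8%, and 4.39% to 58.4% in affected libraries, with a median of 18.2%. The lowest non-affected library was NA64B and the highest affected library A85, the same libraries that lay nearest to the other group in TNNT2 level. The share was computed from the same counts as the TNNT2 level, without correction for transcript length, so it is not separate evidence.

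Neighbouring genes were also set side by side. TNNI1 and TNNT2 lie 11667 bases apart on chromosome 26, with LAD1 between them, and their levels across the 20 libraries had a Spearman's rho of 0.45. TNNT3 and TNNI2 lie 49967 bases apart on chromosome 5, and their rho was -0.21. The closest pair among all members was TNNT2 and TNNI2, from different chromosomes, with a rho of 0.85. These are descriptions over 20 libraries that share their groups.

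The tropomyosin genes had between 1142 (TPM4) and 79774 (TPM1) counts per library, and among non-affected libraries they varied less than the troponins. TPM1, the alpha-tropomyosin gene (ENSGALG00010024570, chromosome 10, 4189085 to 4207740), was at 1744, 2279 and 2915 CPM (lowest, median and highest) in non-affected and at 1487, 2617 and 4182 CPM in affected libraries. The affected libraries lay on both sides of the non-affected range, with 4 above it and 3 below. TPM1 did not pass, with a log2 fold change of 0.20 (SE 0.18, adjusted p = 0.519).

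TPM3, whose striated muscle isoform belongs to slow fibres and whose shorter isoforms are cytoskeletal (ENSGALG00010027391, chromosome 25, 1874715 to 1890770), was at 757, 824 and 1471 CPM in non-affected and at 634, 880 and 1178 CPM in affected libraries. Its log2 fold change was -0.05 (SE 0.14, adjusted p = 0.835). TPM4, a largely non-muscle tropomyosin in mammals (ENSGALG00010027959, chromosome 28, 4878812 to 4886957), was at 102.5, 147.9 and 375 CPM in non-affected and at 75.0, 138 and 212 CPM in affected libraries, with a log2 fold change of -0.28 (SE 0.21, adjusted p = 0.432). For both genes NA64B was the highest of all libraries and the groups otherwise overlapped.

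TPM2, the beta-tropomyosin gene (ENSGALG00010010970, chromosome Z, 9760165 to 9771212), was the exception among the tropomyosins. In non-affected libraries it was at 256.6 CPM at the lowest (NA70), 368 at the median and 632 at the highest (NA64B). In affected libraries it was at 461 CPM at the lowest (A16B), 537 at the median and 758 at the highest (A73). All 9 affected libraries were above the non-affected median, and 3 were above every non-affected library. The mean was 399.5 ± 123 CPM (SD, n = 11) against 588 ± 117 CPM (SD, n = 9), and the log2 fold change was 0.56 (SE 0.16, adjusted p = 0.0407). Of the tropomyosin counts, TPM2 took 10.6% ± 2.02 (SD, n = 11) among non-affected and 14.6% ± 2.62 (SD, n = 9) among affected libraries, whereas TPM1 took 60.99% and 60.94%. The corresponding means were 23.9% and 21.1% for TPM3, and 4.46% and 3.34% for TPM4.

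TPM2 tended to be lower in libraries with HINTW, and its call was close to the threshold. Leaving out 1 library at a time ended it in 12 of 20 fits, with adjusted p up to 0.0734, among them the fit without NA70 (log2 fold change 0.51, adjusted p = 0.0645). TPM2 lies on the Z chromosome, of which male birds carry a pair and females a single copy. The 515 tested Z genes had a median log2 fold change of 0.39, and 23.3% of them were called higher, against a median of -0.03 and 2.35% for 10313 genes placed on other chromosomes, and 146 Z genes had a larger log2 fold change than TPM2. NA61 and NA61B, without HINTW, had 478 and 605 CPM of TPM2, within the affected range, while the 9 non-affected libraries with HINTW had a median of 328 CPM. With HINTW in the fit TPM2 had a log2 fold change of 0.29 (adjusted p = 0.977), and within the libraries under 100 HINTW counts one of 0.13 (adjusted p = 0.855). The part that HINTW status has in the difference was not tested beyond these values.

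**Figure D3:**
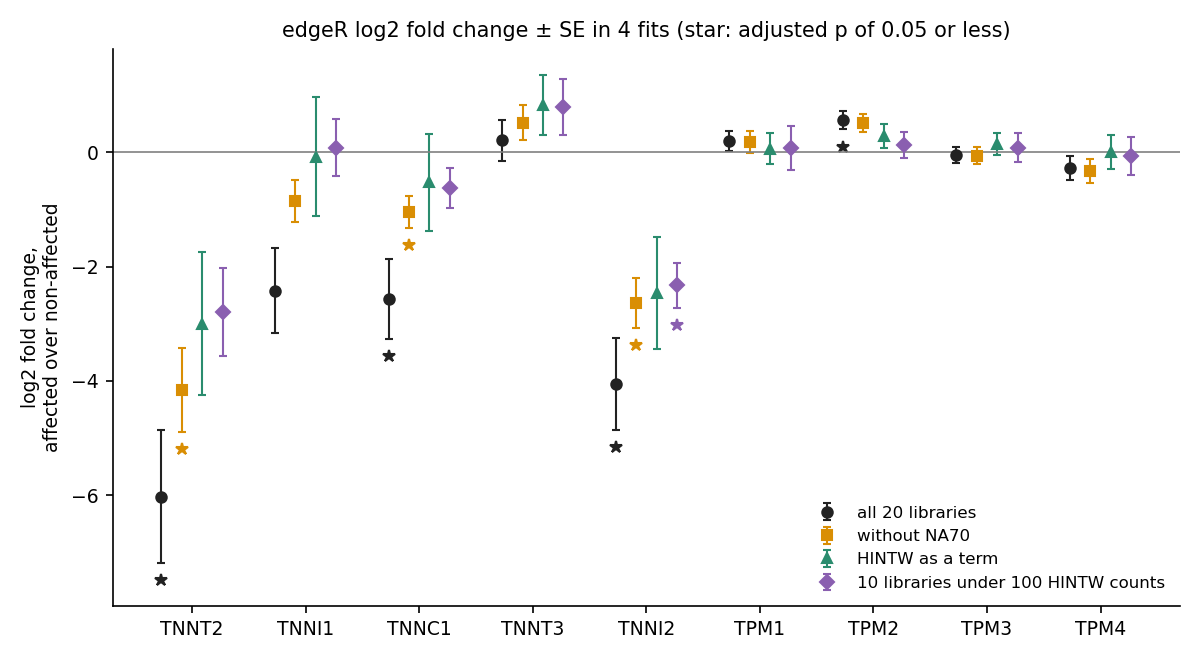
The log2 fold change (affected over non-affected) with its SE from edgeR for the 9 tested genes in 4 fits, with stars at an adjusted p of 0.05 or less. TNNT2 and TNNI2 stay between -6.03 and -2.33 in all 4 fits, whereas TNNI1 goes from -2.42 to about 0 and TPM2 from 0.56 to 0.13.

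The libraries that share a bird number showed how far a gene moved within a bird label, and the labels do not say what the suffix B stands for. TNNT2 was at 30.2 CPM in NA64 and 1.44 CPM in NA64B, a 20.9-fold difference, while TNNI2 was at 3.53 and 0.942 CPM, TPM2 at 393 and 632 CPM, and TPM4 at 169.1 and 375 CPM. TNNT2 and TNNI2 were thus lower and these tropomyosins higher in NA64B, whereas TNNT3 was higher there too (1.10 and 2.32 CPM). NA61 and NA61B differed less, with 19.6 and 11.2 CPM of TNNT2 and 5.58 and 3.93 CPM of TNNI2. Among affected birds TNNT2 was at 1.11 and 1.96 CPM in A16 and A16B, and at 1.996 and 0.738 CPM in A76 and A76B, although A76 had HINTW and A76B had a HINTW count of 0, so that it is not known whether these 2 came from the same bird. When libraries of 1 bird number were summed, TNNT2 and TNNI2 remained lower and TNNC1 did not pass (log2 fold change -2.78, adjusted p = 0.0592).

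The spread among non-affected libraries was wide for 4 of the 5 tested troponins. The coefficient of variation (CV) among the 11 non-affected libraries was 243% for TNNT2, 221% for TNNI1, 217% for TNNC1 and 209% for TNNI2, beside a median of 28.9% over all tested genes. Only 0.0551% of tested genes had a larger CV than TNNT2. TNNT3 had a CV of 76.1%, and 7.86% of tested genes had a larger one. Without NA70 the first 4 values were 111%, 75.7%, 53.4% and 84.0%. The tropomyosins ran from 17.3% for TPM1 to 42.8% for TPM4. Of the 10 genes, 6 were highest in NA70, namely all of the troponins, and in this library TPM2 and TPM4 had their lowest non-affected level.

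MYOG, the myogenic regulator that marks myoblasts entering differentiation, ordered the libraries in much the same way as TNNT2. It was at 339.7 CPM in NA70 and 17.8 CPM in the next library, with a non-affected median of 4.56 CPM, and at 0.0628 CPM in NA64B, the lowest of all libraries. In affected libraries it ran from 0.183 to 0.522 CPM. Among 9804 genes with a mean of at least 50 counts, those whose levels followed TNNT2 most closely over the 20 libraries were ALPK3, a muscle kinase gene (Spearman's rho 0.95), MYOG (0.94) and MYOD1 (0.93). For TNNI2 they were ACTC1 (0.90), XYLT1 (0.90) and SEMA6B (0.89), of which ACTC1 is the cardiac actin gene that immature skeletal muscle uses. Being lower in affected cells is common to these genes, so the values describe shared group levels as well as shared variation.

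The other members followed other genes. TNNI1 was closest to PMEPA1 (0.79), GATA5 (0.76) and TNFRSF1A (0.76), and TNNC1 to THEM4 (0.82), NMI (0.81) and MDFI (0.80). TPM1 was closest to DEPDC7 (0.90) and to the actin-binding genes CNN2 (0.89) and TAGLN (0.88). TPM3 followed PDE6D (0.89), ACTB (0.88), the gene of cytoplasmic beta-actin, and GLRX3 (0.87), and TPM4 followed CALR (0.89), GEMIN2 (0.88) and KDELR2 (0.88). The 3 genes most like TPM2 were MRPS27 (0.90), PTCD2 (0.89) and TMEM167A (0.88), all on the Z chromosome. TPM2 had a rho of -0.85 with MYOG and of -0.78 with TNNT2, the lowest between any 2 members. These genes also differed between the groups, and TPM2 with HINTW, so these values hold group and HINTW levels as well. TNNT3 and TNNC2 had too few counts for this comparison.

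**Figure D4:**
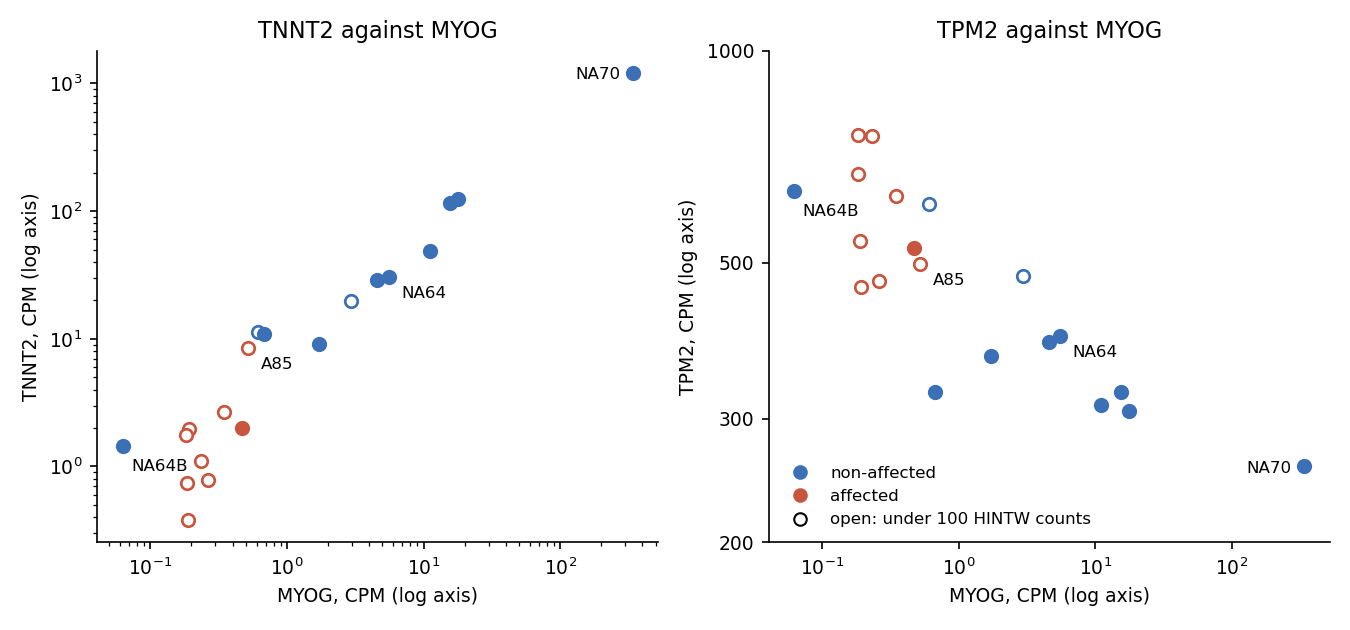
TNNT2 (left) and TPM2 (right) against MYOG in each of the 20 libraries, as CPM on log axes, with affected libraries in red, non-affected libraries in blue and open points for libraries under 100 HINTW counts. TNNT2 runs from 0.380 CPM in A4 to 1204 CPM in NA70 as MYOG rises (rho 0.94), TPM2 falls (rho -0.85), and NA64B lies with the affected libraries. These genes also differed between the groups in the fit of all libraries.

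Other genes of the filament were compared as lists written from their known roles. With HINTW as a term, no gene of these lists or of the marker lists was called by edgeR. Of 13 tested partners of the thin filament, 2 were lower (2.91% of all tested genes were) and none was higher, with a median log2 fold change of -0.02 (edgeR, 2 higher at an unadjusted p under 0.05, and none with DESeq2). These 2 were ACTC1, with a log2 fold change of -5.98 (SE 1.09, adjusted p = 0.00542) and medians of 41.3 CPM (non-affected) and 2.62 CPM (affected), and XIRP1, whose product binds actin at muscle attachment sites (log2 fold change -1.62, SE 0.43, adjusted p = 0.0311). The tropomodulin genes TMOD1 to TMOD4, which cap the pointed ends of filaments, had adjusted p-values between 0.143 and 0.662. Without NA70 both remained lower, at -4.23 for ACTC1 and -1.10 for XIRP1. In the libraries under 100 HINTW counts ACTC1 was lower (-4.50, adjusted p = 0.0287) and XIRP1 did not pass (-0.94, adjusted p = 0.338). Both non-affected libraries of this subset carry the same bird number. ACTA1, NEB, XIRP2, TNNT1 and TNNI3 were not analysed here.

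Of 18 genes listed for fast fibres, 9 were found in the table and 6 tested, and 3 of these were lower (2.91% of all tested genes were), with a median log2 fold change of -1.47. Among them were MYLPF, the fast regulatory light chain (-5.57, adjusted p = 0.0102), and MYH1B, a fast myosin heavy chain of chickens (-2.03, adjusted p = 0.0154). The other was ACTN2, a Z-disc actinin that is not particular to fast fibres (-3.49, adjusted p = 0.0267). Among genes of slow fibres and heart, 2 of 10 tested were lower, with a median of -0.49, namely CASQ2, the cardiac calsequestrin (-4.89, adjusted p = 0.00580), and ACTC1. NA70 enlarged several of these values. Without it MYLPF was at -3.20 (adjusted p = 0.00755), MYH1B at -1.81 (adjusted p = 0.0276) and CASQ2 at -3.51 (adjusted p = 0.00414), while ACTN2 did not pass (-1.66, adjusted p = 0.0564). In the libraries under 100 HINTW counts none of these 4 genes passed, with adjusted p between 0.0718 and 0.943. Fast and slow lists thus each had members that were lower and members that did not pass, as the troponins did.

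Contractile genes of non-muscle and smooth muscle cells, the setting of the short tropomyosins, showed 0 lower and 1 higher of 19 tested genes (edgeR, 1 lower at an unadjusted p under 0.05, and 0 with DESeq2), with a median log2 fold change of 0.05. This count is close to the shares over all tested genes, 2.91% lower and 3.33% higher. The higher one was MYLK, the myosin light chain kinase gene, with a log2 fold change of 1.49 (SE 0.42, adjusted p = 0.0386) and medians of 53.4 CPM (non-affected) and 214 CPM (affected). It did not pass in the libraries under 100 HINTW counts (1.80, adjusted p = 0.171). ACTA2 (0.38, adjusted p = 0.519), TAGLN (-0.03, adjusted p = 0.969) and CALD1 (0.16, adjusted p = 0.790), 3 actin-filament genes, did not pass. NA70 had the lowest non-affected level of some of these genes, such as ACTA2 (194 CPM), CALD1 (78.0 CPM) and MYLK (7.67 CPM), as it had of TPM2. Others differed, with VCL at its highest non-affected level there (1620 CPM). TAGLN was at 1202 CPM in NA70, beside a non-affected lowest of 571 CPM.

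Some markers of the cells in these cultures moved with the troponins. As a summed list, myoblast markers were present in every library. Their summed level was 78.2 to 1539 CPM (median 331) in non-affected and 56.9 to 231 CPM (median 102.8) in affected libraries. Of the 6, 4 were lower (2.91% of all tested genes were), namely MYOD1 (log2 fold change -5.19), CDH15 (-4.08), DES (-2.52) and MYF5 (-2.43). PAX7, the satellite cell factor, did not pass (-0.81, adjusted p = 0.106), and neither did PAX3 (-0.56, adjusted p = 0.299). PAX7 had an affected mean of 77.1 CPM, a large part of the summed level, and MYOD1 one of 2.05 CPM. MYH7B, the tested marker of differentiating muscle beside MYOG, did not pass (-0.31, adjusted p = 0.358). Of 17 tested myogenic regulators, 3 were lower (2.91% of all tested genes were), namely MYOG (-6.94), MYOD1 and MYF5, and none was higher (3.33% were). The median of the 17 was -0.32 (edgeR, 1 higher at an unadjusted p under 0.05, and none with DESeq2). Without NA70 the 4 myoblast markers and MYOG remained lower, with MYOG at -4.36 (adjusted p = 0.00473), MYOD1 at -3.73, CDH15 at -2.98, MYF5 at -2.35 and DES at -1.89. In the libraries under 100 HINTW counts CDH15 remained lower (-3.33, adjusted p = 0.00564), and MYOG (-2.74, adjusted p = 0.0689), MYOD1, MYF5 and DES did not pass. Here too the non-affected side was NA61 and NA61B, which share a bird number. In bulk RNA, fewer cells of a type and less RNA per cell cannot be told apart, so the lower troponin levels cannot be assigned to either.

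Markers of other cell types were given as lists too. Fibroblast markers summed to 5599 to 19699 CPM (median 14208) in non-affected and 3806 to 15402 CPM (median 10266) in affected libraries. Of the 6, 1 was lower (COL3A1, -1.13), against 2.91% of all tested genes. COL1A1 made up most of the fibroblast sum, with means of 10485 CPM (non-affected) and 7864 CPM (affected). PDGFRA and LUM had medians of at most 2.07 CPM in either group, and DCN had medians of 407 and 553 CPM. Macrophage markers summed to 9.80 to 29.1 CPM (median 13.7) and 19.4 to 80.5 CPM (median 28.9, highest in A79). Of 5 tested, 3 were higher (CSF1R 2.58, CYBB 1.84 and PTPRC 1.34), against 3.33% of all tested genes. CD74 (1.12) and C1QB (0.02) did not pass. CSF1R had medians of 0.818 CPM (non-affected) and 1.46 CPM (affected), with up to 21.5 CPM in affected libraries. Without NA70, COL3A1 (adjusted p = 0.0557) and PTPRC (adjusted p = 0.0575) did not pass, and in the libraries under 100 HINTW counts none of the 6 fibroblast and 7 macrophage markers tested did (edgeR). None of 4 smooth muscle and pericyte, 2 endothelial and 4 adipocyte markers tested passed with edgeR or DESeq2. Of the adipocyte markers, 2 were higher at an unadjusted p under 0.05 (edgeR), which 3496 of 14524 tested genes reached in either direction. The part of these cell types in the troponin and tropomyosin differences was not tested.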

How the data were processed

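RNA from 20 libraries of proliferating MuSCs was sequenced after poly-T selection. Per the paper's methods, reads were aligned to GRCg7b with STAR 2.7.9a and quantified with Salmon 1.10.1, and the authors deposited estimated counts per gene from tximport, which were not normalized. The annotation release is not given in the sources used here. Of the values, 71.2% were whole numbers.

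Estimated counts were rounded, filtered with filterByExpr (14524 of 30108 genes kept), scaled by TMM and compared with edgeR 4.0.16 (quasi-likelihood test, no covariates) in R 4.3.3. The SE is the log2 fold change divided by the square root of F, an approximation. Ratios were compared by exact permutation tests. Spearman's rho is a description. The fits were tested on simulated data. Positions come from RefSeq (GRCg7b), matched by symbol. Intervals and limits cover counting error only. Whether the counting used strand is not given in the sources used here.

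Alternatives were DESeq2 1.42.0, limma-voom (limma 3.58.1), other scaling and filters, bird numbers summed, suffix B libraries left out, HINTW as a term and each library left out. The subset under 100 HINTW counts, and the list genes without NA70 or with HINTW, were added after the data were seen. The members, lists and tests were chosen with earlier results of these data known. All 10 members were named, with every called list gene and the 3 genes most like each member. All 20 libraries were used. The study's methods describe 2 excluded non-affected samples, which they do not name, and their number of affected samples is above the 9 in the labels. No libraries of a group agreed within sampling noise (lowest chi-square per degree of freedom 27.7, for NA61 and NA68 of different bird numbers). The 4 pairs that share a bird number had 64.3 (A16), 72.4 (A76), 82.5 (NA61) and 169 (NA64).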

Additional observations from a re-analysis of the deposited data

Results flagged for a closer look

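TNNT2 in the affected library A85 was at 8.46 CPM, far from the nearest other affected library at 2.66 CPM. TNNC2 in the affected library A4 was at 0.571 CPM, with the nearest at 0.268 CPM. Both lay beyond Dixon's 95% limit for 9 samples. This test marks about 1 in 20 groups by chance. It was not applied to the 11 non-affected libraries.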

How the results depend on the processing

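Of all genes tested, the count lower in affected libraries was 422 and rose to 778 with DESeq2 and 1139 with limma-voom, and the count higher was 484 and went to 929 and 1100. The cause was not tested. Without the suffix B libraries, which leaves fewer samples, 306 genes were higher. With HINTW as a term, 1 gene was lower and 0 were higher (edgeR), with 849 at an unadjusted p under 0.05 in either direction. In the 10 libraries under 100 HINTW counts, 27 were lower and 9 higher. Leaving out 1 library gave 243 to 926 lower and 268 to 867 higher genes.

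The 3 lower members became 0 with HINTW as a term and 1 in the libraries under 100 HINTW counts, and stayed at 2 to 4 without any 1 library. The 1 higher member, TPM2, became 0 with upper quartile scaling, without the filter, with HINTW as a term and in the libraries under 100 HINTW counts, and 0 to 1 without any 1 library. TNNC1 also lost its call with limma-voom (-1.15), with bird numbers summed (-2.78) and without the suffix B libraries (-2.66). TPM3, not called, turned to 0.058 without the suffix B libraries, 0.14 with HINTW as a term and 0.079 in the libraries under 100 HINTW counts, and ran from -0.11 to 0.044 without any 1 library. TPM4 turned to 0.0075 with HINTW as a term, and TNNI1 to 0.076 in the libraries under 100 HINTW counts. The TNNC1 to TNNC2 ratio passed with a pseudocount of 5 counts (-0.81). The other 2 ratios kept direction and call with this pseudocount, with bird numbers summed, without the suffix B libraries and without any 1 library, at 1.39 to 1.85 for troponin I and -5.31 to -4.39 for troponin T. In the libraries under 100 HINTW counts they were 2.34 and -4.07. They did not pass after adjustment, although both had the smallest unadjusted p that 2 non-affected libraries allow (exact permutation test, 0.0444). HINTW as a term was not run for the ratios. No paired analysis was possible because the groups share no replicate numbers. Low counts limit TNNC2 and TNNT3.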
